A study of Mus musculus with 6 samples.

Results

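Type II spiral ganglion neuron genes were followed by 6 symbols, Th, Tac1, Prph, Plk5, Gata3 and Etv4, out of 33676 mouse genes with at least 1 transcript in the count table. The genes were taken by their symbols. The counts of each gene were the sum over its listed Ensembl transcripts, and the gene was also read transcript by transcript. The libraries were made from the modiolus of C57BL/6 mice, the core of the cochlea in which the spiral ganglion neurons (SGNs) lie. The control group had 3 libraries of saline-treated animals. The degenerated group had 3 libraries of animals taken on day 30 after kanamycin at 1 g/kg, followed by furosemide at 0.4 g/kg, a combination that destroys hair cells. Both groups were wild type, and the study's methods describe males of 8 weeks. Nothing in the sources used here says how many animals a library holds, so that p-values measure the spread between these libraries, which may be technical.

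The ear sends sound to the brain through a large class of myelinated type I SGNs, which contact inner hair cells, and a small class of unmyelinated type II SGNs, which contact outer hair cells. Peripherin, encoded by Prph, is the classical marker of type II SGNs. Single-cell surveys of the ganglion added the dopamine-synthesis enzyme gene Th, the substance P precursor gene Tac1, the polo-like kinase gene Plk5 and the transcription factor genes Gata3 and Etv4. None of the 6 genes belongs to type II SGNs alone. Th and Prph are also used by sympathetic and somatosensory neurons, Tac1 by somatosensory neurons, Gata3 by hair cells, supporting cells and T cells, and Etv4 by cells that answer fibroblast growth factors.

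Libraries held 12480876 to 15549319 counts. The sample labels name the spiral ganglion neuron as cell type, while the tissue was the whole modiolus, and the libraries held transcripts of other cells. The outer hair cell genes Ocm and Slc26a5, the second of which encodes the motor protein prestin, fell in the degenerated group. Their log2 fold changes were -5.83 (SE 0.61) and -5.11 (SE 0.60), at adjusted p = 0.0802 and 0.0901 in edgeR's test. Among 10 tested hair cell genes, 2 were fitted higher and 8 lower. Only Ocm and Slc26a5 passed the criteria for a call given below, beside 0.715% of all genes tested that were called lower. Ikzf2, another hair cell gene, was higher without overlap of the groups, at 0.52 (SE 0.23). Sums are given in CPM, the normalized count per 1e+06 counts of a library. The 10 skeletal muscle genes summed to 732 to 1310 CPM in control and 330 to 522 CPM in degenerated libraries. Control replicate 3 had the highest of these sums, which include Pvalb, a gene also of SGNs. Bone marrow and red cell genes summed to 4759 to 42942 CPM in control and 4320 to 16057 CPM in degenerated libraries. In such bulk RNA, fewer cells of a type and less RNA per cell cannot be told apart.

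The 6 genes have 37 annotated transcripts in GENCODE M21 on the GRCm38 build, of which 18 were listed in the count table, and 9 of 18 annotated coding transcripts were listed. Which coding form was listed matters for every count below, and the stretches that tell the forms apart are shown here for that reason, in transcript direction. Capitals mark the bases present in the first form named and absent from the second, and lower case marks the flanking coding bases.
Prph intron 4 retained, in Prph-202 (listed), absent from Prph-201 (not listed), chr15:99056937-99057032, plus strand: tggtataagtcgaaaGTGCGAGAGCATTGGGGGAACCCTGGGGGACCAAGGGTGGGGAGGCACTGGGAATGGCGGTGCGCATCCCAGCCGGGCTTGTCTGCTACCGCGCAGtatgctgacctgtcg
Tac1 exon 6, in Tac1-205 (listed), absent from Tac1-201 (listed), chr6:7559099-7559152, plus strand: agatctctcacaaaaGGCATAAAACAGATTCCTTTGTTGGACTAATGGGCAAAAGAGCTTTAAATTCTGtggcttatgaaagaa
Tac1 exon 4, in Tac1-205 (listed), absent from Tac1-203 (not listed), chr6:7557216-7557260, plus strand: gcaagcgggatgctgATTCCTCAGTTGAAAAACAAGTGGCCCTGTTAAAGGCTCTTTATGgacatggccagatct
Plk5 exon 4 stretch, in Plk5-201 (not listed), absent from Plk5-202 (listed), chr10:80358775-80358786, plus strand: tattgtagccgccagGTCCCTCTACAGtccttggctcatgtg
Etv4 exon 7 stretch, in Etv4-212 (listed), absent from Etv4-202 (listed), chr11:101774228-101774245, minus strand: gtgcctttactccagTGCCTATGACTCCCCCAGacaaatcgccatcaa

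All 5 stretches had lengths divisible by 3, so that the reading frame goes on behind them. The Prph stretch was 96 bases and equals the whole intron 4 of Prph-201. The Tac1 exons held 54 and 45 bases, the longer of which encodes neurokinin A. The Plk5 and Etv4 stretches held 12 and 18 bases. For a gene with several coding forms of which some were not listed, a count here covers the listed forms only. A form that was not listed is not known to be absent from the libraries.

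No member passed the criteria used for a call in edgeR's quasi-likelihood test, an unadjusted p under 0.01 and a log2 fold change beyond 0.2 in either direction. All 6 genes passed the filter on low counts. Of 14118 genes tested, 385 (2.73%) passed these criteria, 284 higher (2.01%) and 101 lower (0.715%) in the degenerated group. At a Benjamini-Hochberg adjusted p under 0.05, edgeR's quasi-likelihood test called 0 genes (0%), while 1367 (9.68%) had an unadjusted p under 0.05. At the same adjusted p, DESeq2 called 263 genes higher and 119 lower, edgeR's exact test 85 and 30, and limma-voom 0. None of the 6 genes reached an unadjusted p under 0.05, and their adjusted p in edgeR's quasi-likelihood test lay between 0.744 and 0.982. The libraries of the groups overlapped for all 6 genes, against 2499 of 14118 tested genes (17.7%) whose groups did not overlap. Th and Tac1 had fitted values below 0, and Prph, Plk5, Gata3 and Etv4 above 0, with a median log2 fold change over the 6 of 0.11 beside -0.003 over all genes tested.

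**Figure D1:**
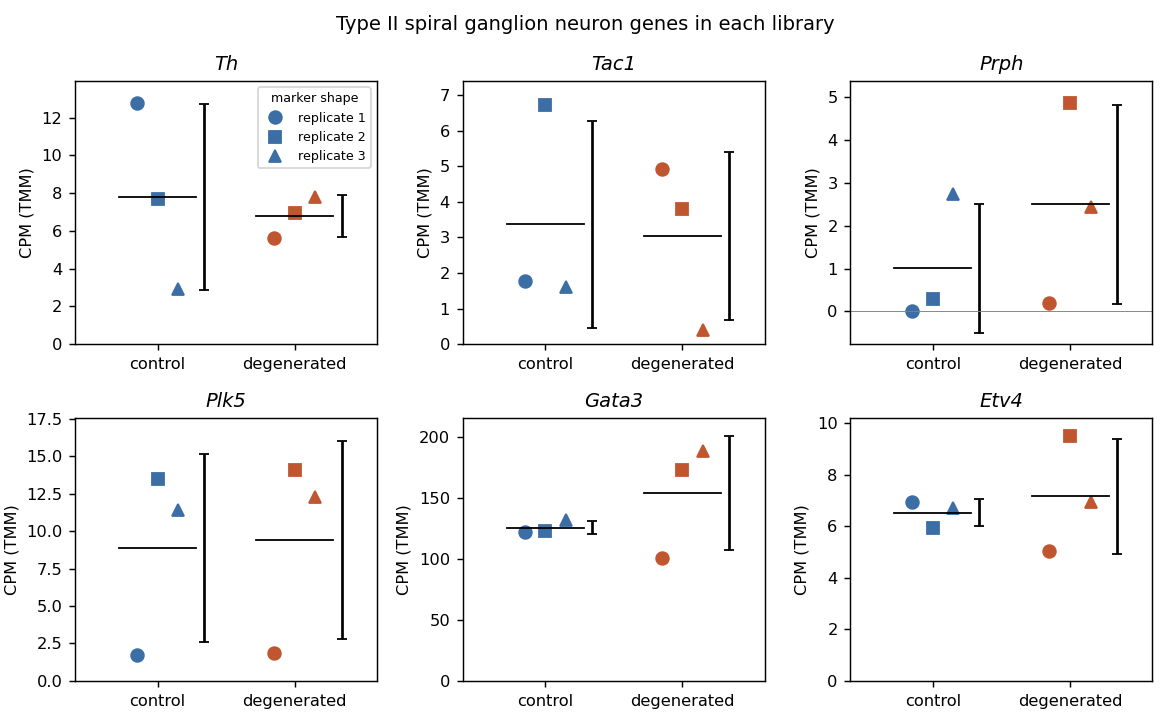
CPM normalized with TMM factors (vertical axis, starting at 0 except for Prph, where a thin line marks 0) of the 6 genes in the 3 control and 3 degenerated libraries. Points are libraries with the replicate number as marker shape, horizontal lines are group means and bars the SD on either side; the groups overlap in every panel, and Plk5 and Prph are near 0 in replicate 1 of both groups.

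Th encodes tyrosine hydroxylase, the rate-limiting enzyme of catecholamine synthesis, and lies at chr7:142892752-142931128 on the minus strand (ENSMUSG00000000214). Its counts were 193, 109 and 46 in control replicates 1 to 3 and 82, 99 and 99 in degenerated replicates 1 to 3. Normalized with TMM factors, these were 12.8, 7.71 and 2.94 CPM in control and 5.61, 6.97 and 7.81 CPM in degenerated libraries. The highest and the lowest library were both controls, and the 3 degenerated libraries lay between them. The means were 7.81 ± 4.92 and 6.80 ± 1.11 CPM (SD, n = 3 each). The log2 fold change was -0.20 (SE 0.54; edgeR's quasi-likelihood test, unadjusted p = 0.726, adjusted p = 0.927). The 95% interval, -1.52 to 1.12 on the log2 scale, covers folds from 0.349 to 2.18. Without control replicate 1 the fitted value turned to 0.34, and without control replicate 3 it was -0.59. The replicate number as a block gave 0.01 and limma-voom 0.03. All counts of Th were those of Th-201, the coding form of 13 exons and 1494 coding bases, while the other 5 annotated transcripts were not listed.

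Other genes of the catecholamine pathway gave no call in either direction. The list of 14 genes had 10 with a listed transcript and 7 tested, of which 3 were fitted higher and 4 lower, with a median log2 fold change of -0.01. Ddc, the decarboxylase that turns the product of tyrosine hydroxylase into dopamine, had 0 counts in every control library and 7, 0 and 4 counts in degenerated replicates 1 to 3, too few to be tested. Dbh, which turns dopamine into noradrenaline and defines noradrenergic cells, was at 0 counts in all 6 libraries with both of its annotated transcripts listed. Pnmt, the adrenaline-forming enzyme, was also at 0, with 1 of 2 transcripts listed. Qdpr, which recycles the cofactor of tyrosine hydroxylase, had a log2 fold change of 0.47 (SE 0.33; unadjusted p = 0.208 in edgeR's test). The vesicular transporter gene Slc18a1 and the breakdown enzyme genes Maoa and Maob had values between -0.06 and 0.05. The genes Gch1, Slc18a2, Slc6a2 and Slc6a3 were not analysed here.

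Markers of sympathetic neurons, which also make tyrosine hydroxylase, were near 0. Besides Dbh, the factor gene Hand1 had 0 counts in all libraries, Hand2 had 2 counts and Phox2a 13 over all 6. The list of 11 sympathetic genes had 8 with a listed transcript, of which 2 were tested, and it summed to 56.0 to 104.8 CPM in control and 93.6 to 139 CPM in degenerated libraries. Most of that sum was Gata2, a factor of several tissues. Ecel1, a peptidase gene that is also known to respond to nerve injury, rose with a log2 fold change of 3.73 (SE 0.97; unadjusted p = 0.0083 and adjusted p = 0.359 in edgeR's test).

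Tac1 encodes the precursor of substance P and neurokinin A and lies at chr6:7554879-7565834 on the plus strand (ENSMUSG00000061762). Its counts were 27, 95 and 25 in control and 72, 54 and 5 in degenerated libraries, or 1.79, 6.72 and 1.60 CPM and 4.93, 3.80 and 0.395 CPM. Control replicate 2 was the highest and degenerated replicate 3 the lowest library, and the other libraries of the groups lay among each other. The means were 3.37 ± 2.91 and 3.04 ± 2.36 CPM (SD, n = 3 each). The log2 fold change was -0.14 (SE 0.98; edgeR's quasi-likelihood test, unadjusted p = 0.890, adjusted p = 0.972). The 95% interval of -2.53 to 2.25 covers folds from 0.173 to 4.75. Either of the extreme libraries decided the sign, as leaving out control replicate 2 gave 0.84 and leaving out degenerated replicate 3 gave 0.37.

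The Tac1 counts came nearly all from the form that holds both alternative exons printed above. Tac1-205, known as the beta form, had 27, 95 and 21 counts in control and 70, 54 and 5 in degenerated libraries. Its share of the gene's counts was 94.7% ± 9.24 in control and 99.1% ± 1.60 in degenerated libraries (SD, n = 3 each; exact two-sided permutation test p = 1.0, where 0.1 is the smallest that 3 against 3 allows). Tac1-201, the alpha form that lacks the neurokinin A exon, had 0 of the 278 counts of all libraries, which allows a share of up to 1.08% for counting error only. Tac1-204, a short form of 46 coding bases, had 4 counts in control replicate 3 and 2 in degenerated replicate 1. Tac1-203, the gamma form, was not listed.

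Among partners of Tac1, none was called. The list of 6 tachykinin genes had 4 with a listed transcript and 3 tested. Mme encodes neprilysin, a membrane peptidase that cleaves substance P, and had 2.71, 3.96 and 2.94 CPM in control and 7.32, 7.04 and 5.29 CPM in degenerated libraries. Its groups did not overlap, with a log2 fold change of 1.03 (SE 0.32; unadjusted p = 0.017 and adjusted p = 0.409 in edgeR's test). Tacr1, the substance P receptor gene, had 6 to 15 counts per library and a log2 fold change of 0.37 (SE 0.52). Tac2, the neurokinin B precursor gene, had 45 counts in control replicate 2 and 0 to 22 in the other libraries, and its log2 fold change was -1.19 (SE 1.80). The nociceptor channel genes Scn10a and Scn11a, which mark somatosensory neurons that use Tac1, were at 0 counts in all 6 libraries. The 10 somatosensory genes, of which 8 had a listed transcript, summed to 3.1 to 8.1 CPM in control and 3.7 to 12.7 CPM in degenerated libraries.

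Prph encodes peripherin, an intermediate filament protein of peripheral neurons, and lies at chr15:99055174-99058978 on the plus strand (ENSMUSG00000023484). Its counts were 0, 4 and 43 in control and 3, 69 and 31 in degenerated libraries, or 0, 0.283 and 2.74 CPM and 0.205, 4.86 and 2.45 CPM. The 0 of control replicate 1 allows up to 3 counts, or 0.199 CPM. Control replicates 1 and 2 and degenerated replicate 1 were near 0, and control replicate 3 lay between degenerated replicates 2 and 3. The means were 1.01 ± 1.51 and 2.50 ± 2.33 CPM (SD, n = 3 each). The log2 fold change was 1.3 (SE 1.57; edgeR's quasi-likelihood test, unadjusted p = 0.440, adjusted p = 0.825). The 95% interval of -2.54 to 5.13 covers folds from 0.172 to 34.9. The value stayed above 0 with each library left out in turn. It moved from 0.37 without degenerated replicate 2 to 4.07 without control replicate 3, which also had the highest sum of skeletal muscle genes. The part of skeletal muscle in the Prph counts was not tested. Every count of Prph belonged to Prph-202, which retains intron 4, and the spliced form Prph-201 was not among the listed transcripts.

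The filament partners of peripherin gave no call. Of 10 genes of the list, 9 were listed and tested, 2 were fitted higher and 7 lower, with a median log2 fold change of -0.35. In 4 of the 9 the groups did not overlap, beside 17.7% of all genes tested. The neurofilament genes, which mark large myelinated axons, were lower in every degenerated library than in every control library, without passing the criteria. Nefh had 3252, 2187 and 2205 CPM in control and 1415, 1861 and 1316 CPM in degenerated libraries, a log2 fold change of -0.73 (SE 0.22; unadjusted p = 0.015 and adjusted p = 0.401 in edgeR's test). Nefl and Nefm had -0.56 (SE 0.21) and -0.61 (SE 0.23). Dst, a linker that binds filaments to other parts of the cytoskeleton, had 2.09 (SE 0.94) with 331 to 3496 counts in control and 3752 to 11639 in degenerated libraries. The glial filament gene Gfap had 1.12 (SE 0.54), and Vim -0.29 (SE 0.24). Prph itself had the widest spread between libraries of the 6 members, with a biological coefficient of variation of 133%, above that of 98.2% of tested genes.

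Plk5 encodes a member of the polo-like kinase family that is found in neurons and lies at chr10:80356459-80365489 on the plus strand (ENSMUSG00000035486). Its counts were 26, 191 and 179 in control and 27, 200 and 156 in degenerated libraries, or 1.72, 13.5 and 11.4 CPM and 1.85, 14.1 and 12.3 CPM. In both groups replicate 1 was low and replicates 2 and 3 were high, so that the low libraries differed from the high ones within a group far more than the groups differed. The exact 95% Poisson intervals were 17.0 to 38.1 counts for control replicate 1 and 165 to 220 counts for control replicate 2. The means were 8.89 ± 6.29 and 9.42 ± 6.61 CPM (SD, n = 3 each). The log2 fold change was 0.08 (SE 0.96; edgeR's quasi-likelihood test, unadjusted p = 0.934, adjusted p = 0.982). The 95% interval of -2.27 to 2.44 covers folds from 0.207 to 5.43. Without control replicate 1 the value was -0.42, without degenerated replicate 1 it was 0.56, and without both, an alternative chosen after seeing the data, it was 0.07.

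The difference between the libraries in the listed counts of Plk5 lay in its listed coding transcript. Plk5-202 had 0, 181 and 151 counts in control and 0, 184 and 140 in degenerated libraries. Plk5-204, a form with a retained intron and no coding sequence, had 26, 10 and 28 counts in control and 27, 16 and 16 in degenerated libraries. The low libraries were thus low through Plk5-202, while their Plk5-204 counts lay within the 10 to 28 of the other libraries. For counting error only, the 0 of Plk5-202 allows up to 11.5% of the 26 counts of the gene in control replicate 1. In degenerated replicate 1 it allows up to 11.1% of the 27. In the remaining libraries Plk5-202 took 84.4% to 94.8% of the gene's counts. Between the groups, its share was 59.7% ± 52.0 in control and 60.6% ± 52.5 in degenerated libraries (SD, n = 3 each; exact two-sided permutation test p = 1.0). Plk5-201, which differs from Plk5-202 by the 12 bases printed above, was not listed. Whether reads were assigned to Plk5-201 in the libraries at 0 was not tested.

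**Figure D2:**
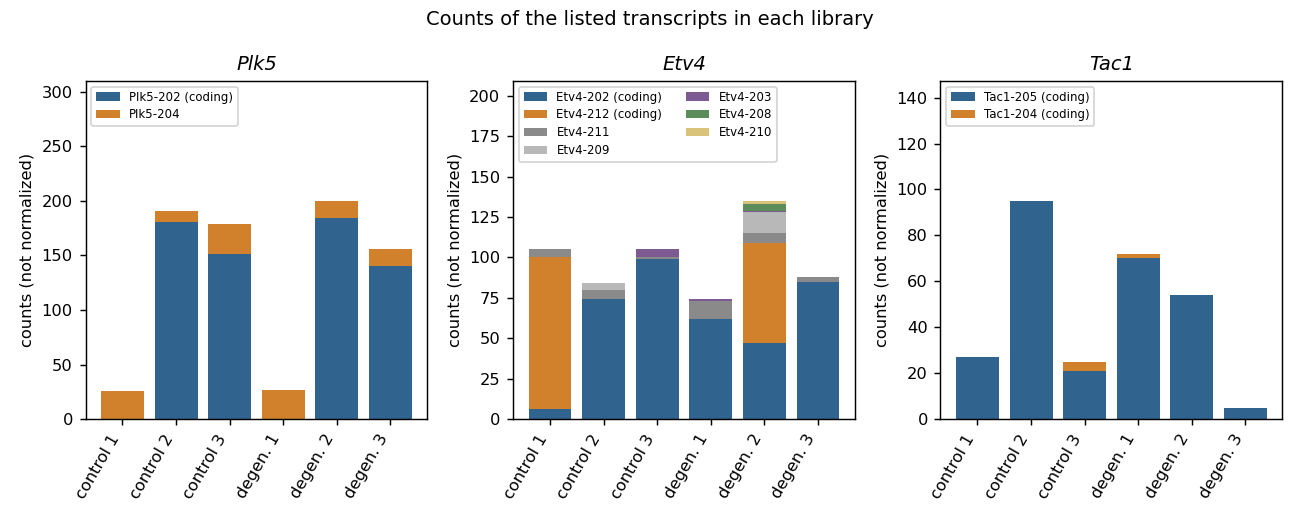
Counts, not normalized (vertical axis, from 0), of the listed transcripts with counts of Plk5, Etv4 and Tac1 in the 6 libraries (horizontal axis), stacked by transcript. Plk5-202 is at 0 in replicate 1 of both groups, Etv4-212 has counts in control replicate 1 and degenerated replicate 2 and in no other library, and Tac1 is nearly all Tac1-205.

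The other polo-like kinase genes gave no call. Of 4, Plk1, Plk3 and Plk4 were listed and tested, with log2 fold changes of -0.84 (SE 1.01), 0.08 (SE 0.36) and -0.52 (SE 1.21). Plk1 and Plk4, which act in dividing cells, ranged from 36 to 629 and from 4 to 230 counts among control libraries. Plk4, like Plk5, was lowest in replicate 1 of both groups, with 4 counts in control replicate 1 and 27 in degenerated replicate 1 beside 77 to 230 in the other libraries. Plk1 was lowest in control replicate 1 and degenerated replicate 2. Plk3, a stress-response kinase gene, ranged from 112 to 214 and was lowest in control replicate 2.

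Gata3 encodes a zinc finger transcription factor needed for ear and auditory neuron development and lies at chr2:9857078-9890034 on the minus strand (ENSMUSG00000015619). It had the most counts of the 6 genes, 1854, 1739 and 2072 in control and 1482, 2461 and 2388 in degenerated libraries, or 123, 123 and 132 CPM and 101, 173 and 188 CPM. The 3 control libraries lay close together, degenerated replicates 2 and 3 above them and degenerated replicate 1 below. The means were 126 ± 5.39 and 154 ± 46.5 CPM (SD, n = 3 each). The log2 fold change was 0.29 (SE 0.24; edgeR's quasi-likelihood test, unadjusted p = 0.264, adjusted p = 0.744). The 95% interval of -0.29 to 0.88 covers folds from 0.819 to 1.83. Without degenerated replicate 1 the value was 0.51 with an unadjusted p of 0.0067 and an adjusted p of 0.491, which passed the criteria, and without replicate 1 of both groups it was 0.50 with an unadjusted p of 0.018. Over the other alternatives it ran from 0.12 upward, and the smallest adjusted p over all of them was 0.454.

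Nearly all Gata3 counts belonged to Gata3-201, its full coding form of 1329 coding bases. It had 1821, 1729 and 2039 counts in control and 1459, 2422 and 2371 in degenerated libraries, from 98.2% to 99.4% of the gene. The transcript's log2 fold change was 0.25 (SE 0.25), close to that of the gene. The noncoding Gata3-204 had 7 to 30 counts per library and 0.36 (SE 0.55). The gene overlaps 9230102O04Rik on its own strand, of which 1 transcript with 14 to 35 counts was listed, and 2 genes on the other strand that were not listed. The labels and methods do not say whether reads were counted by strand.

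Markers of the other cells that use Gata3 are given beside it. Supporting cell and otic epithelium genes, 10 of 12 listed, summed to 1220 to 1387 CPM in control and 1435 to 1699 CPM in degenerated libraries, without overlap, and 0 of 9 tested were called. Without the connexin gene Gjb2 the sums overlapped, at 178 to 251 CPM in control and 158 to 208 CPM in degenerated libraries. Gjb2 made up most of the sum and had a log2 fold change of 0.36 (SE 0.11; unadjusted p = 0.019 in edgeR's test). T cell genes, 7 of 8 listed, summed to 29.5 to 68.5 CPM in control and 39.2 to 64.3 CPM in degenerated libraries, with 0 of 6 tested called, 2 fitted higher and 4 lower. Of their defining genes, Cd3e had 23 to 34 counts in control and 0 to 12 in degenerated libraries, and Cd3d 19 to 39 and 15 to 32. Hair cell genes summed to 790.5 to 1112 CPM and 573.5 to 660 CPM. The part of these cells in the Gata3 counts was not tested. Among GATA factors and cofactors, 5 of 7 were listed and 4 tested, with 0 called and a median log2 fold change of -0.07. Gata2 had 0.19 (SE 0.27), Gata6 0.09 (SE 0.46), and the cofactor genes Zfpm1 and Zfpm2 -0.24 (SE 0.42) and -0.38 (SE 0.22), while Gata4 was at 0 counts in all libraries with 2 of 6 transcripts listed.

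Etv4 encodes an ETS transcription factor of the PEA3 group, which is transcribed in response to fibroblast growth factors, and lies at chr11:101769742-101785371 on the minus strand (ENSMUSG00000017724). Its counts were 105, 84 and 105 in control and 74, 135 and 88 in degenerated libraries, or 6.95, 5.94 and 6.70 CPM and 5.06, 9.51 and 6.95 CPM. The highest and the lowest library were both degenerated, with the controls between them. The means were 6.53 ± 0.525 and 7.17 ± 2.23 CPM (SD, n = 3 each). The log2 fold change was 0.13 (SE 0.33; edgeR's quasi-likelihood test, unadjusted p = 0.696, adjusted p = 0.917). The 95% interval of -0.66 to 0.93 covers folds from 0.631 to 1.91. Without degenerated replicate 2 the value was -0.13.

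The gene total of Etv4 was steadier than its transcripts. Etv4-202, which lacks the 18 bases printed above, had 6, 74 and 99 counts in control and 62, 47 and 85 in degenerated libraries. Etv4-212, which has them, had 94, 0 and 0 counts in control and 0, 62 and 0 in degenerated libraries. Control replicate 1 and degenerated replicate 2 thus had counts assigned to Etv4-212, and the other libraries had 0. The counting step is not stated, and how it assigned reads shared by such similar forms was not tested. The sum of both listed coding forms was 100, 74 and 99 counts in control and 62, 109 and 85 in degenerated libraries. The share of Etv4-202 was 62.7% ± 49.4 in control and 71.7% ± 32.6 in degenerated libraries (SD, n = 3 each; exact two-sided permutation test p = 0.8). The forms also differ by 3 bases in exon 6, present in Etv4-202 and absent from Etv4-212. Etv4-201, another coding form that has the 18 bases, was not listed. The remaining 5 listed transcripts were noncoding and had at most 13 counts in a library. With protein-coding transcripts only, the log2 fold change of the gene was 0.02.

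Relatives of Etv4 and feedback targets of fibroblast growth factor signalling were mostly fitted higher in the degenerated group. Of 10 genes, 8 were listed and tested, 7 were fitted higher and 1 lower, with a median log2 fold change of 0.42, beside 7016 of 14118 tested genes fitted higher. In 5 of the 8 the groups did not overlap (17.7% of all genes tested), among them Spry1, which was lower in the degenerated group. Of the 8, 1 was called higher (2.01% of all genes tested). That gene, Etv5, another PEA3 factor, had 37.9, 36.8 and 29.7 CPM in control and 52.3, 62.0 and 53.9 CPM in degenerated libraries. It rose with a log2 fold change of 0.69 (SE 0.17; unadjusted p = 0.0062 and adjusted p = 0.342 in edgeR's test). Spry2, an inhibitor of receptor tyrosine kinase signalling, had 0.54 (SE 0.15; unadjusted p = 0.0103) and just missed the criteria. The MAP kinase phosphatase gene Dusp4 had 0.88 (SE 0.34), and Spred1 and Spred2, further inhibitors of the pathway, 0.22 (SE 0.12) and 0.30 (SE 0.20). Etv1, the third PEA3 factor, had 0.16 (SE 0.27), and Spry1 had -0.31 (SE 0.18).

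**Figure D3:**
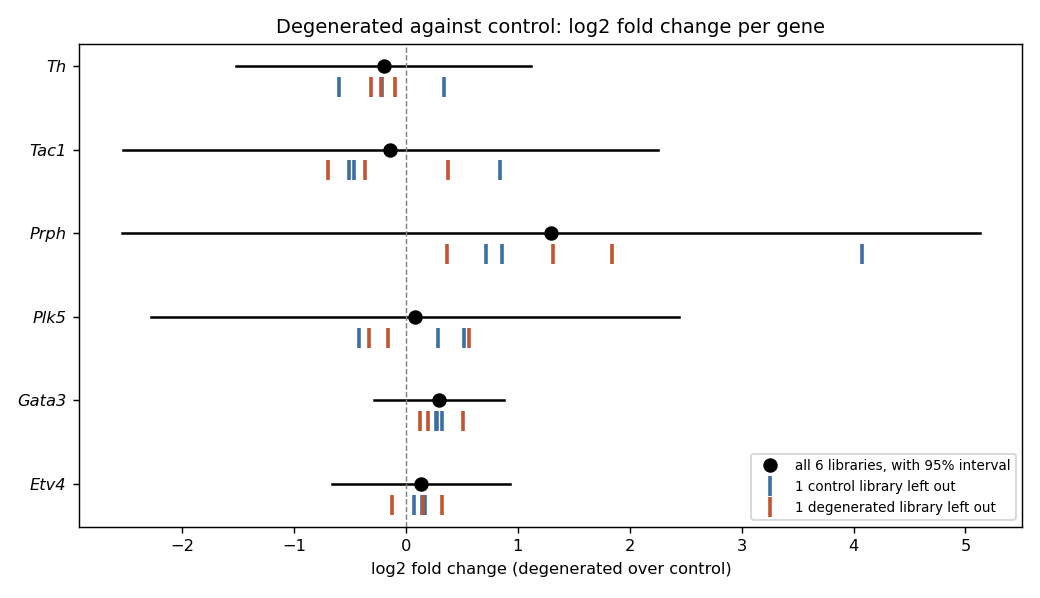
Log2 fold change of degenerated over control libraries (horizontal axis) for each of the 6 genes, with the 95% interval of edgeR's quasi-likelihood fit over all 6 libraries (point and line) and the values with 1 library left out (ticks, blue for a control and orange for a degenerated library). All 6 intervals include 0, and the ticks of Th, Tac1, Plk5 and Etv4 lie on both sides of 0.

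At the level of transcripts, 17 of the 18 listed transcripts of the members had counts and 8 passed the filter on low counts. Of 26065 transcripts tested, 466 (1.79%) passed the same criteria, 296 higher (1.14%) and 170 lower (0.652%), and 4 (0.0153%) had an adjusted p under 0.05. No transcript of the members was called, and the smallest unadjusted p of the 8 was 0.349, for Gata3-201, beside 1968 tested transcripts (7.55%) with an unadjusted p under 0.05. The fitted log2 values were 0.22 (SE 0.93) for Etv4-202, 0.06 (SE 2.12) for Plk5-202, -0.17 for Tac1-205, -0.25 for Th-201 and 1.26 for Prph-202. The interval of Plk5-202, -5.21 to 5.32, was the widest of the 8.

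Levels were compared between the members per length, as TPM over the listed transcripts, where counts are divided by transcript length and each library is scaled to the same sum. Gata3 was the highest at a mean of 91.9 TPM, with libraries between 67.3 and 125. It was followed by Plk5 at 9.08, Etv4 at 7.76, Th at 7.64, Tac1 at 5.04 and Prph at 1.84 TPM. The lowest Gata3 library lay above every library of the other genes, while the ranges of all neighbours below it overlapped. The order of Etv4 and Th turned in control libraries, where their means were 6.44 and 7.94 TPM. Plk5 ran from 2.67 to 14.5 TPM, Etv4 from 5.75 to 13.4, Th from 2.89 to 13.7, Tac1 from 0.630 to 9.40 and Prph from 0 to 5.35. These levels leave out transcripts that were not listed, which were most of the annotated forms of Th and Prph.

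As the number of neurons may differ between libraries, each member was also set against the median of 14 listed pan-neuronal genes in the same library, on the log2(CPM + 1) scale. The pan-neuronal median was 7.33 ± 0.46 in control and 6.90 ± 0.16 in degenerated libraries, a difference of -0.43 (exact two-sided permutation test p = 0.3) with overlapping groups. The 15 genes of that list had 0 calls among 13 tested, with 4 fitted higher and 9 lower. In 5 of the 13 the groups did not overlap (17.7% of all genes tested), some of them higher and some lower. Snap25, a synaptic vesicle fusion gene, had a log2 fold change of -0.62 (SE 0.20), and Tubb3, the neuronal tubulin gene, -0.04 (SE 0.13). The synaptic vesicle genes Syn2 and Syp had 0.45 (SE 0.13) and 0.64 (SE 0.39), both without overlap of the groups. Among 12 tested type I SGN genes, 5 were fitted higher and 7 lower, with a median log2 fold change of -0.14, and 1 was called, beside 0.715% of all genes tested that were called lower. That gene, Calb2, which encodes the calcium binder calretinin, fell by 1.07 on the log2 scale (SE 0.29; unadjusted p = 0.0096 and adjusted p = 0.362 in edgeR's test).

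Relative to that neuronal median, all 6 members had a positive difference between degenerated and control libraries. The exact permutation test of 3 against 3 libraries cannot give a p below 0.1, so that no member could reach 0.05. The differences were 0.42 for Th (p = 0.4), 0.26 for Tac1 (p = 0.9), 1.21 for Prph (p = 0.2), 0.50 for Plk5 (p = 0.5), 0.67 for Gata3 (p = 0.3) and 0.51 for Etv4 (p = 0.2), by exact two-sided permutation tests. All 6 differences share the same reference, so that their common sign is not 6 separate results. Gata3 lay near the neuronal median, at -0.87, -0.30 and 0.14 in control and -0.37, 0.52 and 0.84 in degenerated libraries. The groups overlapped for every member. With Tubb3 in place of the median, Tac1 had a difference of -0.13.

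**Figure D4:**
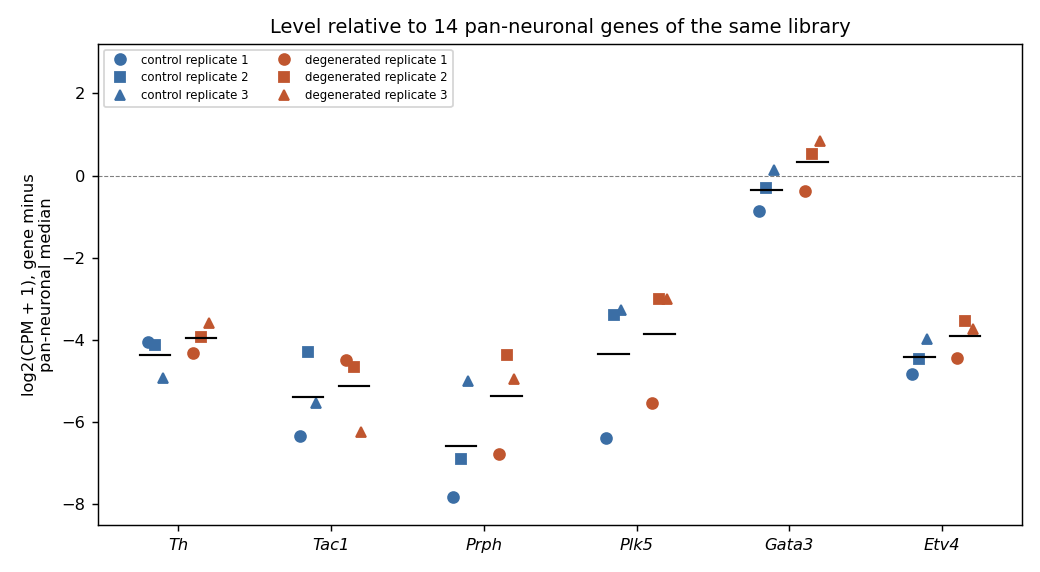
Level of each of the 6 genes minus the median of 14 pan-neuronal genes of the same library, on the log2(CPM + 1) scale (vertical axis), in 3 control (blue) and 3 degenerated (orange) libraries, with group means as lines. Gata3 lies near 0 and the other genes below it, and the libraries of the groups overlap for every gene.

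Across the 6 libraries, Etv4, Gata3, Plk5 and Prph had positive correlations with each other, while Tac1 and Th stood apart from them. On log2 CPM, Pearson's r among these 4 genes ran from 0.48 for Etv4 and Plk5 to 0.79 for Plk5 and Prph, as a description over 6 libraries in which all genes share depth and composition. Tac1 had negative values with all other members, down to -0.61 with Gata3, and Th lay between -0.54 with Prph and 0.15 with Etv4. Control replicate 1 was the lowest library for Plk5 and Prph and the highest for Th. Degenerated replicate 2 was the highest for Etv4, Plk5 and Prph. Degenerated replicate 1 was the lowest for Gata3 and Etv4. No library was thus high or low for all of the genes.

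The gene with the pattern most like each member was found by Pearson's r of log2 CPM over the 6 libraries, among 9904 or 9905 tested genes with a mean of at least 50 counts. For Th it was Pcdhga5 with r = 0.98, for Tac1 Gmeb1 with 0.99, for Prph Mcoln3 with 0.99, for Plk5 Dnase1 with 0.99, for Gata3 Baz1b with 0.98 and for Etv4 Bmpr1b with 0.98. Next in order came Klf4 and Nxt2 for Th, Ctnna2 and Flt4 for Tac1, Ccp110 and Mfn1 for Prph, Sdf2 and Stam for Plk5, Tubgcp4 and Slco2a1 for Gata3, and Bet1 for Etv4. Between 8 genes for Tac1 and 29 for Plk5 had an r above 0.95. No other member was among these genes, and with 6 libraries such values describe likeness only.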

How the data were processed

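RNA of the modiolus was sequenced in 3 control and 3 degenerated libraries, grouped by the sample labels. The authors aligned reads with Hisat2 2.1.0 and quantified them with StringTie 1.3.3b, and the submitters' processing notes also name Bowtie 0.12.2, mm8 and mm10 with no role given. No source used here states the counting step, strand setting or annotation. The deposited unit is the raw count per Ensembl transcript, not normalized, for 65535 transcripts. Of these, 65272 matched GENCODE M21 (GRCm38), where they are 46.0% of annotated transcripts, and the 263 others held 0.125% of counts. With its header line the count table has 65536 lines, the row limit of an old spreadsheet format. Part of the transcripts may therefore have been cut off. The design had assumed counts per gene, so the counts of listed transcripts were summed per gene.

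The robust quasi-likelihood F test of edgeR 4.0.16 (R 4.3.3), after filterByExpr and TMM normalization, was run on genes and on transcripts over all 6 libraries, and p-values were adjusted over the whole table. An SE was the absolute log2 fold change divided by the root of F. Shares and relative levels were compared with exact permutation tests. Poisson intervals and the limit of 3 counts that a 0 allows cover counting error only. Depth was 12480876 to 15549319 counts per library. As alternatives, limma-voom (limma 3.58.1), DESeq2 1.42.0 and the exact test of edgeR were run, and other normalizations and filters, protein-coding transcripts only, the replicate block, each library left out in turn and, chosen after seeing the data, replicate 1 of both groups left out were tried. The fits were tested on simulated data. Coding sequences were read from GENCODE M21 transcripts by exon coordinates.

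The members and gene lists were chosen with earlier results of these data known. Named genes were the 6 members, list genes called or sharing a family or pathway with a member, and the 3 genes most like each member, and results for some genes that this rule names are not reported here. Snap25, Tubb3, Gjb2, Cd3e, Ikzf2 and the sympathetic and somatosensory markers were named as markers of other cells, after their values were seen. Glial, macrophage and nerve injury lists were tested and are summarised in the closing section.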

Additional observations from a re-analysis of the deposited data

How the results depend on the processing

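Over 16 alternatives for each of the 6 genes (96 values), 1 passed the criteria and 10 had the other sign. That one was Gata3 at 0.51 without degenerated replicate 1. Leaving out 1 library moved Etv4 from -0.13 to 0.32, Gata3 from 0.12 to 0.51, Plk5 from -0.42 to 0.56, Prph from 0.37 to 4.07, Tac1 from -0.69 to 0.84 and Th from -0.59 to 0.34. Th was 0.029 with limma-voom and 0.46 without replicate 1 of both groups. The causes were not tested.

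Whether the replicate numbers pair the libraries cannot be decided from 3 libraries per group. Same-numbered libraries had correlations of deviations of 0.14, -0.09 and 0.07, beside -0.26 to 0.22 for libraries of different numbers. Not every library correlated best with its own number. With the replicate number as a block, Th was 0.0079, Plk5-204 was 0.036, and the genes called were 160 higher and 58 lower and the transcripts 138 and 83. DESeq2 called 479 genes higher and 306 lower and 657 transcripts higher and 555 lower. Protein-coding transcripts only gave 184 genes higher, from 10490 genes tested in place of 14118. Leaving out 1 library gave 144 to 339 genes higher, 76 to 158 lower, 211 to 412 transcripts higher and 152 to 230 lower.

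The 8 tested transcripts of the members, none of them called with all libraries, changed sign in 15 of 88 values. With 1 library left out, Etv4-202 ran from -0.32 to 0.71, including -0.12 without degenerated replicate 3, and was -0.25 without replicate 1 of both groups. Plk5-202 ran from -0.52 to 0.69, with -0.47 and -0.26 without degenerated replicates 2 and 3, and Plk5-204 from -0.36 to 0.16, with 0.14, 0.11 and 0.03 without control replicate 1 and degenerated replicates 2 and 3. Tac1-205 ran from -0.67 to 0.88, with 0.88 and 0.34 without control replicate 2 and degenerated replicate 3. Th-201 ran from -0.64 to 0.32, with 0.32 without control replicate 1 and 0.43 without replicate 1 of both groups. The difference in the share of the leading transcript ran from -19.5 to 27.5 percentage points for Etv4, from -0.25 to 0.40 for Gata3, from -29.0 to 31.2 for Plk5 and from -0.93 to 7.07 for Tac1. The level relative to neurons ran from -0.51 to 1.35 for Plk5 and from -0.21 to 0.82 for Tac1, which was -0.13 against Tubb3.

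Low counts limit the precision for Prph, with 0 to 69 counts per library, and Tac1, with 5 to 95. Counts of all 6 genes leave out at least 1 annotated coding transcript that was not listed.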

Other observations

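Genes known to respond to nerve injury were higher in the degenerated group. Of 9, 5 were listed and tested and 4 passed the criteria (unadjusted p under 0.01 and absolute log2 fold change above 0.2), which 2.01% of all tested genes did in that direction. The injury transcription factor gene Atf3 rose by 1.48 on the log2 scale, Gap43, a growth cone gene, by 2.05, Sprr1a by 4.27 and the heat shock gene Hspb1 by 1.11. The macrophage list had 6 of 9 genes listed and 5 tested, with 3 fitted higher and 2 lower. Its complement genes C1qb and C1qc rose by 0.69 and 0.63, while Cd68 and Itgam had log2 fold changes of -1.54 (SE 1.11) and -0.67 (SE 0.66) and were not called. Schwann and satellite glia genes, with 8 of 11 listed and tested, had 0 calls and 0 unadjusted p under 0.05 in edgeR's test, with 4 fitted higher and 4 lower. Pvalb, which encodes the calcium binder parvalbumin of muscle and also of SGNs, fell by 0.81 on the log2 scale.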
